A study of Mus musculus with 6 samples.

Results

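The pore-forming subunits of the voltage-gated potassium (Kv) channels were examined in TurboRFP-positive cells sorted from the mouse olfactory bulb, with and without Sox9. The members were all genes whose symbol joins Kcn, a subfamily letter (a, b, c, d, f, g, h, q, s or v) and a number, which gave 40 of the 24421 genes listed. RNA-seq was done on 3 Sox9 KO mice, which were Sox9fl/fl, and on 3 control mice without floxed Sox9, given as strain C57BL/6 in the labels and as C57BL/6J or Sox9+/+ in the study. The mice were adult, males according to the methods, and both groups received AAV-GFAP-iCre-P2a-TurboRFP in both olfactory bulbs. In this virus the GFAP promoter drives Cre recombinase and, from the same transcript, the red fluorophore TurboRFP, so that Cre was also present in the controls. The cells were collected 4 weeks later, with 1 library per mouse. The purity of the sorted cells was not measured by resorting them. The study states that it was checked in the RNA-seq instead, against markers of known cell types. A cell of any type that expressed TurboRFP from this promoter could enter the sort, as could cells carried along with it.

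Kv channels open when the membrane is depolarized and let potassium leave the cell, which ends the action potential and sets how often and how long a cell can fire. Each channel is built from pore subunits of the same subfamily, and the silent subunits (Kcnf, Kcng, Kcns and Kcnv) form channels only together with Kcnb subunits. Neurons rely on these channels in their axons, somata and dendrites, and glial cells express some of them as well, while the resting potassium conductance of mature astrocytes comes mainly from inward rectifier and tandem-pore potassium channels.

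The values are normalized counts, that is, reads per gene divided by 1 size factor per library. The libraries held between 18242129 and 86906527 reads on genes, and a single read was worth 0.395 to 1.58 normalized counts, so that 3 reads, taken as the floor of detection, came to between 1.18 and 4.73 normalized counts. Sox9 itself had 5185, 6562 and 4921 normalized counts in the 3 controls, against 52.6, 64.3 and 57.7 in KO, so every KO library was far below every control. The 13 astrocyte marker genes examined were all called lower in KO, with a summed level of 549239 to 615638 in control but 39208 to 51186 in KO. Of 20 neuronal markers, which include Snap25, Map2 and Syt1, 17 were called lower and none higher, and their sum was 28218 to 35495 in control and 4509 to 7347 in KO. Of 16 microglia and macrophage markers, which include Csf1r and C1qb, 13 were called higher and 3 lower, and their sum was 174857 to 212376 in control but 621933 to 746573 in KO. Of the other lists, 7 of 8 oligodendrocyte, 7 of 7 oligodendrocyte precursor and 5 of 6 olfactory ensheathing markers were called lower and none higher. Further, 3 of 9 vascular markers were called lower and 2 higher, and 1 of 8 T and NK cell markers was called higher. By the same rule, defined in the next paragraph, 28.8% of all genes tested were called lower and 22.2% higher. The vascular counts, at 33.3% and 22.2%, were near these shares. No marker examined was at 0 throughout a group. In sorted cell populations, fewer cells of a type and less RNA per cell cannot be told apart, and the part of these marker changes in the channel results was not tested.

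The Kv genes were lower in the Sox9 KO libraries in nearly all subfamilies. A gene was called changed at an adjusted p under 0.05 and a change of at least 1.5-fold in limma. Of the 40 members, Kcna10 and Kcnv2 had no read in any library, and the other 38 passed the filter on a mean of at least 1 normalized count and were tested. Of these 38, 31 were called lower, against 28.8% of all genes tested, and 2 were called higher, against 22.2% of all genes tested. The 2 that rose were Kcnd1 and Kcng2, and the 5 that did not pass were Kcna3, Kcng1, Kcnh1, Kcnq1 and Kcns1. Every KO library was below every control for 31 members, against 34.7% of all genes, and above every control for 3 members, against 32.4% of all genes. Over the 38 members the median log2 fold change was −2.37 (KO over control), beside −0.07 over all 18413 genes tested. Summed over the 40 genes, the channel counts ranged from 25993 to 28845 for control mice and from 3605 to 5336 for KO mice, and the control mean was 6.20 times the KO mean. The 2 groups of summed values did not overlap, and the same ratio of the summed markers was 13.1 for astrocytes, 8.03 for oligodendrocyte precursors, 5.67 for neurons, 2.80 for olfactory ensheathing cells, 2.74 for oligodendrocytes, 1.35 for vascular cells, 1.07 for T and NK cells and 0.269 for microglia and macrophages.

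**Figure D1:**
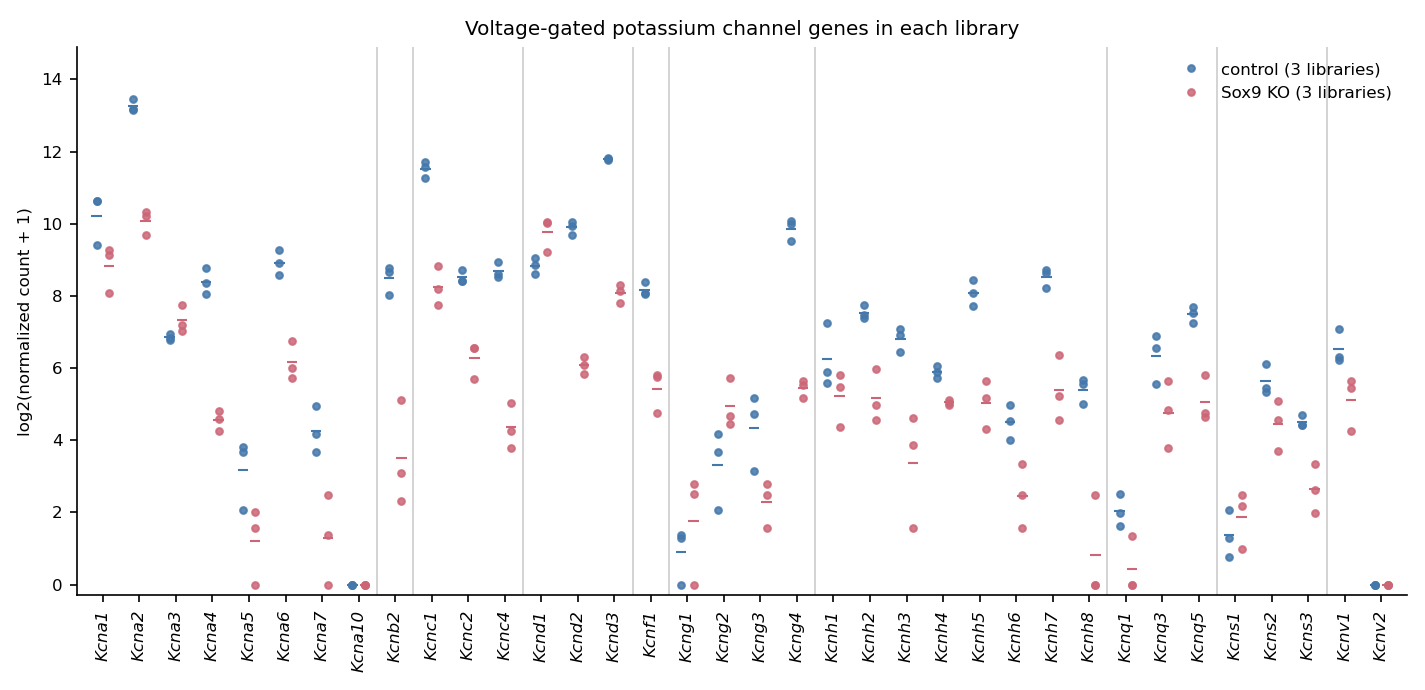
Level of 36 voltage-gated potassium channel genes in each library, as log2(normalized count + 1), ordered by subfamily letter (grey lines). Each point is 1 library (blue, 3 controls; red, 3 Sox9 KO) and the short bars are group means; most red points lie below the blue points, Kcna3, Kcnd1 and Kcng2 are the exceptions without overlap, and Kcna10 and Kcnv2 are at 0.

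The Kcna genes encode the Kv1 (Shaker-type) subunits, which give low-threshold currents, and Kcna1 and Kcna2 are best known from axons. Of the 7 Kcna genes tested, 6 were called lower, against 28.8% of all genes tested, and Kcna3 did not pass the test. Kcna2, the Kv1.2 subunit, was the most abundant member in the controls, with 11209.9, 9152 and 9331 normalized counts in control replicates 1 to 3, against 826, 1281 and 1194 in KO replicates 1 to 3. The highest KO library thus held less than the lowest control by a wide margin, and the log2 fold change was −3.19 (SE 0.16, limma adjusted p = 7.3e-08). Kcna1, the Kv1.1 subunit, was measured at 685, 1576 and 1587 normalized counts in control and at 269, 563 and 621 in KO. Its control replicate 1 was close to the highest KO library and the groups did not overlap, with a log2 fold change of −1.39 (SE 0.36, limma adjusted p = 0.007); without limma's variance trend the adjusted p was 0.051. The ratio of Kcna2 to Kcna1 within a library, which does not depend on the scaling between libraries, was 3.04 ± 0.86 on the log2 scale in control and 1.25 ± 0.34 in KO (n = 3 each, SD). It was lower in each KO library than in each control (exact two-sided permutation p = 0.1, the smallest that 3 against 3 allows, and 0.2 adjusted over 8 subfamily ratios).

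Among the other Kv1 subunits, Kcna4, the rapidly inactivating Kv1.4, fell most, with a control mean 15.0 times the KO mean and a log2 fold change of −3.84 (SE 0.28, limma adjusted p = 1.1e-06). Kcna6 (Kv1.6) fell by 2.76 on the log2 scale. Kcna5 and Kcna7 were near the floor, with 2 to 17 and 8 to 25 reads per control library but 0 to 2 and 0 to 4 reads per KO library, and their log2 fold changes were −1.98 and −2.99. The call of Kcna5 (adjusted p = 0.046 in limma) was lost in 10 of 16 alternatives. It was lost on the removal of control replicate 1 (adjusted p = 0.14), control replicate 2 (0.14), KO replicate 1 (0.066) or KO replicate 2 (0.15). Kcna3, the Kv1.3 subunit, known from lymphocytes and microglia as well as from olfactory bulb neurons, did not fall, with 113, 109 and 123 normalized counts in control and 146, 131 and 213 in KO. Each KO library was above each control, but the lowest KO and the highest control library were close, and the log2 fold change of 0.47 (SE 0.24, limma adjusted p = 0.11) did not pass the test. Quantile normalization alone gave a call, at a log2 fold change of 1.17 (adjusted p = 0.0014).

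Kcna3, Kcna2 and Kcna10 lie next to each other, all on the plus strand of chromosome 3, at chr3:107036162-107038129, chr3:107090883-107115005 and chr3:107183143-107195721 of GRCm38.p6 (mm10), and they differed in level and direction: Kcna3 was slightly higher in KO without passing the test, Kcna2 fell, and Kcna10 had no read. The promoter stretches of these neighbours are printed below from RefSeq's table of GRCm38.p6, 5′ to 3′, to show how unlike they are in sequence; they were chosen with the values known. They are the parts of the 250 bases before each gene's start that lie outside annotated exons, and capitals mark CpG dinucleotides. The Kcna2 stretch lies before a start inside the gene span, since RefSeq also has an earlier start.
Kcna3, chr3:107035912-107036161, plus strand: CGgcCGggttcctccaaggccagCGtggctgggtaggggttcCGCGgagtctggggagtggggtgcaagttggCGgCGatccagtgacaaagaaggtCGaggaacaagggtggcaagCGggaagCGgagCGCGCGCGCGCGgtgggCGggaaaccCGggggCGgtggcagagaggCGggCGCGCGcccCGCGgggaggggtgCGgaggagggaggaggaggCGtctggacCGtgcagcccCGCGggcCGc
Kcna2, chr3:107101395-107101566, plus strand: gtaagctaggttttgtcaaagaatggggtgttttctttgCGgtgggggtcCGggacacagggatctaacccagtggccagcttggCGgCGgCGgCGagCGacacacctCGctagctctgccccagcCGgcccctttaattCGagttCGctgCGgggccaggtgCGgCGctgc
Kcna10, chr3:107182893-107183055, plus strand: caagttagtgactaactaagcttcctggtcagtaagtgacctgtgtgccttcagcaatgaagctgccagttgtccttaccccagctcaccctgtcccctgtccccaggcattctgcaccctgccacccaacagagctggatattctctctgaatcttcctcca
The stretch of Kcna3 holds 31 CpG dinucleotides in 250 bases, that of Kcna2 holds 14 in 172 bases, and that of Kcna10 holds 0 in 163 bases. CpG-rich promoters were common among the members in that table: the 30 windows found for 25 members had a median of 14 CpG and 62.6% G and C in 250 bases, against 6 CpG and 52.4% over all 32851 windows. The motifs AACAAT and AACAAAG, which resemble the core bound by SOX proteins and share their first 5 letters, were searched on both strands. At least 1 match was found in 3 of the 30 member windows (10.0%), which belong to Kcnc2 and Kcnq5 and of which 2 overlap each other, and in 13.8% of all windows. A match of this kind describes the letters of the window only.

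The Kcnb genes encode the Kv2 subunits, which carry much of the slow delayed rectifier current of neuronal somata and dendrites. Kcnb2 had the lowest log2 fold change of the members in limma, going from 406, 259 and 439.8 to 3.97, 7.5 and 33.4 normalized counts, with a value of −4.99 (SE 0.61, limma adjusted p = 4.3e-05). With a pseudocount of 0.1, edgeR or DESeq2, Kcnh8 was lower (−6.85, −5.39 and −5.49, against −5.15, −4.85 and −4.68 for Kcnb2). The KO replicates of Kcnb2 were themselves unlike, since replicate 3 was several times as high as the others, and all of them were far below the controls.

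The Kcnc genes encode the Kv3 subunits, whose fast, high-threshold currents allow rapid firing. For Kcnc1, Kcnc2 and Kcnc4, no KO library reached the level of a control. Every KO library was below every control for 34.7% of all genes tested. Kcnc1, the Kv3.1 subunit, was counted at 3327, 3043 and 2467 in control and at 212, 456 and 293 in KO, with a log2 fold change of −3.26 (SE 0.24, limma adjusted p = 1e-06). Kcnc4, a subunit with fast inactivation, went from 488, 392 and 369 to 12.9, 32.0 and 18.2 normalized counts. This was among the largest falls of all members, with a log2 fold change of −4.33 (SE 0.33, limma adjusted p = 1.4e-06). Kcnc2 (Kv3.2) fell by 2.24 on the log2 scale, less than Kcnc1 and Kcnc4.

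The Kcnd genes encode the Kv4 subunits of the rapidly inactivating A-type current, and here the subfamily split. Kcnd3 (Kv4.3), second among the members in the controls, held 3605, 3523 and 3499 normalized counts there and 224, 278 and 316 in KO. Its controls were within a few percent of each other, and the log2 fold change was −3.71 (SE 0.13, limma adjusted p = 1.3e-08). Kcnd2 (Kv4.2) was similar, at 1064, 829 and 985 in control and 56.6, 78.6 and 66.8 in KO, with a log2 fold change of −3.82 (SE 0.19, limma adjusted p = 6.3e-08). Kcnd1 (Kv4.1), on the X chromosome at chrX:7823759-7838278, rose: it had 533, 392 and 459 normalized counts in control and 1062, 1046 and 596 in KO. KO replicate 3 was much lower than KO replicates 1 and 2 and still above the highest control, and the log2 fold change was 0.93 (SE 0.22, limma adjusted p = 0.004), a ratio of 1.95 of KO to control. It remained called higher in all 17 alternative fits at 1.5-fold, with log2 fold changes between 0.601 and 1.201, and it was just short of a 2-fold threshold. The log2 ratio of Kcnd3 to Kcnd1 was 2.95 ± 0.21 in control and −1.69 ± 0.69 in KO (n = 3 each, SD), so that the order of these subunits turned around in every KO library (exact two-sided permutation p = 0.1, the smallest possible; 0.2 adjusted over 8 ratios).

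**Figure D2:**
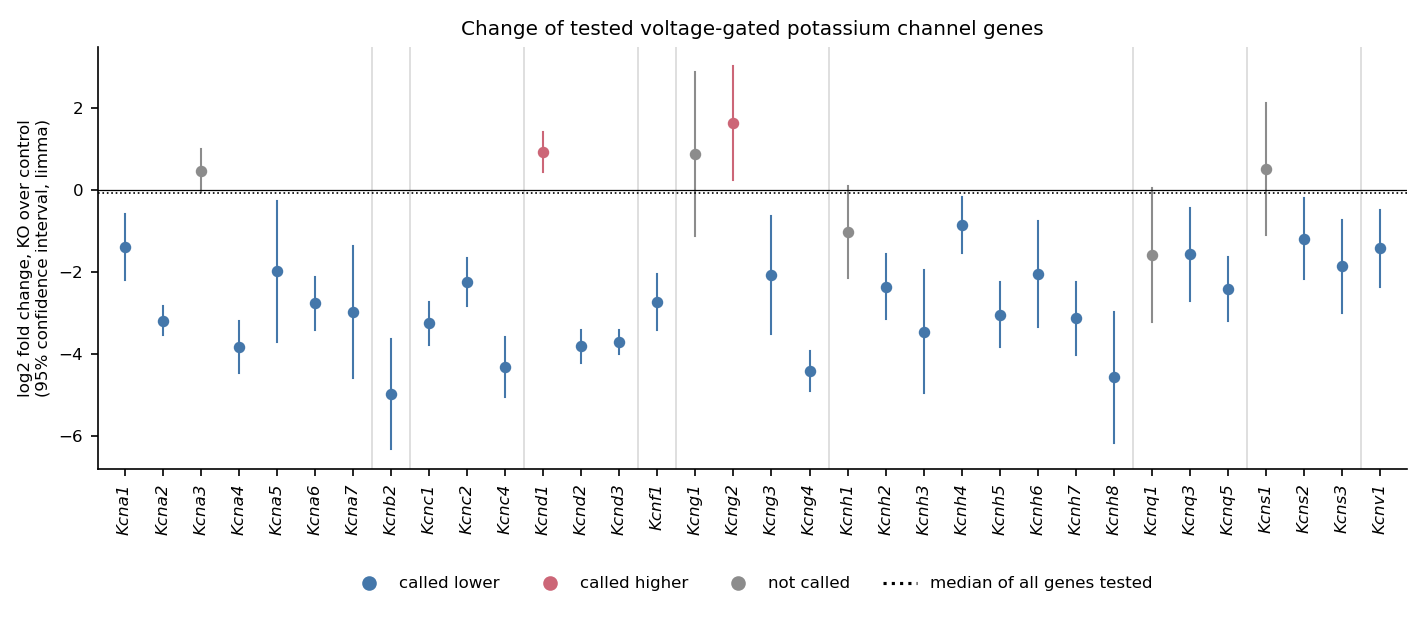
Log2 fold change of KO over control for 34 tested channel genes, with 95% confidence intervals from limma on log2(normalized count + 1). Blue genes were called lower (27), red ones higher (2) and grey ones were not called (5); the dotted line at −0.07 is the median of all genes tested.

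The Kcnh genes encode the EAG, ERG and ELK channels, which shape resting and repolarizing currents. Against 28.8% of all genes tested, 7 of the 8 Kcnh genes were called lower. Kcnh7, an ERG channel, was the highest by count, with 399, 299 and 418 normalized counts in control and 36.7, 81.3 and 22.8 in KO and a log2 fold change of −3.14 (SE 0.40, limma adjusted p = 5.9e-05). Kcnh5, an EAG channel, went from 272, 212 and 347 to 18.9, 49.0 and 34.9, with a log2 fold change of −3.05 (SE 0.36, limma adjusted p = 3.3e-05). The ratio of Kcnh7 to Kcnh5 did not separate the groups (exact two-sided permutation p = 1). Kcnh8, an ELK channel, rested on 34, 45 and 29 reads in control but on 0, 0 and 3 in KO, the highest of which was at the floor. Over all reads, adjusted for the summed size factors of each group, the ratio of control to KO was 54.5 (95% exact interval 18.2 to 269, for counting error only). This ratio gives more weight to the deeper libraries, and the ratio of the group means was 27.7. The fitted log2 fold change of Kcnh8, which depends on the pseudocount, was −4.58 (SE 0.72, limma adjusted p = 0.00029). Kcnh2, the ERG channel of cardiac repolarization, Kcnh3 and Kcnh6 fell by 2.36, 3.46 and 2.05 on the log2 scale, and the call of Kcnh6 was lost under quantile normalization (−1.27, adjusted p = 0.075). Kcnh4, another ELK channel, had 58.5, 51.6 and 66.2 normalized counts in control and 30.8, 33.6 and 31.9 in KO, the smallest fall among the called members at −0.85 (SE 0.31, limma adjusted p = 0.034). It lost its call in 9 of 17 alternatives, among them the removal of any library (adjusted p between 0.051 and 0.094) and quantile normalization, where the value turned to 0.03. Kcnh1 (EAG1) overlapped between the groups, with 58.5, 46.8 and 151 in control and 43.7, 54.9 and 19.7 in KO, and its log2 fold change of −1.02 (SE 0.51, limma adjusted p = 0.11) was not called, although it was with libraries scaled to the same total without Rn45s (−1.34, adjusted p = 0.045).

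The Kcnq genes encode the Kv7 channels, of which Kcnq3 and Kcnq5 help to carry the M-current that restrains repeated firing. Kcnq5 had 205, 151 and 184 normalized counts in control and 23.8, 55.3 and 25.8 in KO, with a log2 fold change of −2.42 (SE 0.35, limma adjusted p = 0.00015). KO replicate 2 was the highest KO library for Kcnq5 and for Kcnq3. For Kcnq3, at 117, 93.6 and 45.7 in control and 12.9, 49.3 and 27.3 in KO, that library exceeded control replicate 3, so the groups overlapped although the log2 fold change of −1.57 (SE 0.52, limma adjusted p = 0.022) was called; the call was lost without control replicate 1 (adjusted p = 0.092), without control replicate 2 (0.08), without KO replicate 1 (0.07), without limma's variance trend (0.063) and under quantile normalization (−0.69, adjusted p = 0.25). Kcnq1, the cardiac and epithelial member, rested on 8 reads in all controls and 1 read in all KO libraries. Adjusted for the summed size factors of each group, the ratio of control to KO was 12.1. Its exact interval was 1.62 to 538, for counting error only. The ratio of the group means was 6.40. Kcnq1 was not called (limma adjusted p = 0.085), although it was without a filter on low values (0.037) or without limma's variance trend (0.027).

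The silent subunits modify Kv2 channels and do not carry a current alone. Against 28.8% and 22.2% of all genes tested, 6 of the 9 tested silent subunits were called lower and 1 higher. Kcng4 (Kv6.4) was the most abundant of them in control, at 1078, 1019.9 and 733 normalized counts against 34.7, 45.0 and 48.6 in KO, and its log2 fold change of −4.43 (SE 0.22, limma adjusted p = 7e-08) was among the lowest of the family. Kcnf1 (Kv5.1) dropped from 272, 263 and 331 to 25.8, 52.5 and 54.7, with −2.74 (SE 0.31, limma adjusted p = 2.4e-05), and Kcnv1 (Kv8.1) from 77.5, 74.3 and 136 to 48.6, 43.0 and 18.2, with −1.42 (SE 0.42, limma adjusted p = 0.014). The call of Kcnv1 was lost without control replicate 3 (adjusted p = 0.066) and under quantile normalization (−0.61, adjusted p = 0.27). Kcns2 (Kv9.2) was at 39.5, 68.1 and 42.6 in control and 11.9, 32.8 and 22.8 in KO, and its call (−1.18, limma adjusted p = 0.04) was lost in 10 of 17 alternatives. These include the removal of control replicate 1 (adjusted p = 0.054), 2 (0.15) or 3 (0.066) or of KO replicate 1 (0.13) or 3 (0.062). Kcns3 (Kv9.3) had 20.5, 24.8 and 20.5 and 2.98, 5.13 and 9.11 normalized counts, with −1.86 (SE 0.51, limma adjusted p = 0.0092), and Kcng3 (Kv6.3) fell by 2.07 on the log2 scale. Under quantile normalization the calls of Kcns3 (−1.06, adjusted p = 0.081) and Kcng3 (−1.30, adjusted p = 0.11) were lost, and that of Kcng3 was also lost without control replicate 1 (adjusted p = 0.08), control replicate 2 (0.069) or KO replicate 1 (0.06).

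Kcng2 (Kv6.2) was the second member to rise. It rested on 8, 25 and 2 reads in control but on 21, 132 and 16 in KO, or 11.7, 17.2 and 3.15 and 20.8, 52.1 and 24.3 normalized counts. All KO libraries exceeded all controls, by a small margin between control replicate 2 and KO replicate 1, and the log2 fold change of 1.65 (SE 0.62, limma adjusted p = 0.041) was the highest of the family. Its call was close to the threshold and was lost in 10 of 17 alternatives, among them the removal of control replicate 1 (adjusted p = 0.057), control replicate 3 (0.13), KO replicate 2 (0.15) or KO replicate 3 (0.061). The gene also shares exon sequence with a gene on the opposite strand, and since whether the counting used strand goes unnamed by the labels and the methods, reads of the 2 genes cannot be told apart. Kcng1 and Kcns1, with 0 to 2 reads per control library, overlapped between the groups and were not called (adjusted p = 0.42 and 0.56 in limma). Kcng1 had 2 reads in all controls and 18 in all KO libraries. Adjusted for the summed size factors of each group, its ratio of KO to control was 5.94, with an exact interval of 1.42 to 52.8 for counting error only. The ratio of its group means was 3.52.

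Exon sequence was shared with an opposite-strand gene by 9 members in GENCODE, among them Kcna6, Kcnd3, Kcng2, Kcnh3, Kcnh7, Kcnq1 and Kcnq5. Among the 29 tested members without such an overlap, 24 were called lower and 1 higher, against 28.8% and 22.2% of all genes tested. The median log2 fold change of the 29 was −2.24.

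Per length of transcript, which allows a rough comparison of levels between genes, the order of the members changed between the groups. The lengths are those of the longest protein-coding transcript. The annotation used for counting is not given, so the counted length of a gene may differ. In the controls Kcna2 stood first, at 855 ± 98.4 normalized counts per kb (SD, n = 3), followed by Kcnd3 at 494 ± 7.75, Kcnc1 at 379.6 ± 56.5, Kcna1 at 318 ± 128 and Kcng4 at 248 ± 48.6. Kcna2, Kcnd3 and Kcnc1 were apart by more than their SDs, whereas Kcna1 overlapped with both of its neighbours in this order. By the KO means Kcnd1 stood first, at 170.5 ± 50.1 normalized counts per kb, followed by Kcna1 at 120.2 ± 46.9, Kcna2 at 95.0 ± 20.9, Kcna3 at 85.7 ± 22.9 and Kcnc1 at 41.3 ± 16.0. Each of the first 4 overlapped with its neighbour in this order within their SDs, and Kcnc1 lay below them. Kcnd1 had been in rank 10 and Kcna3 in rank 16 in the controls, while Kcng4 went from rank 5 to rank 13. By normalized counts alone, Kcna2 remained above Kcnd1 in the KO mean (1100 against 901). Kcnd1 was also not first per kb in KO replicate 3. There Kcna1 had more counts (621 against 596) on a shorter transcript (4.03 against 5.29 kb).

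**Figure D3:**
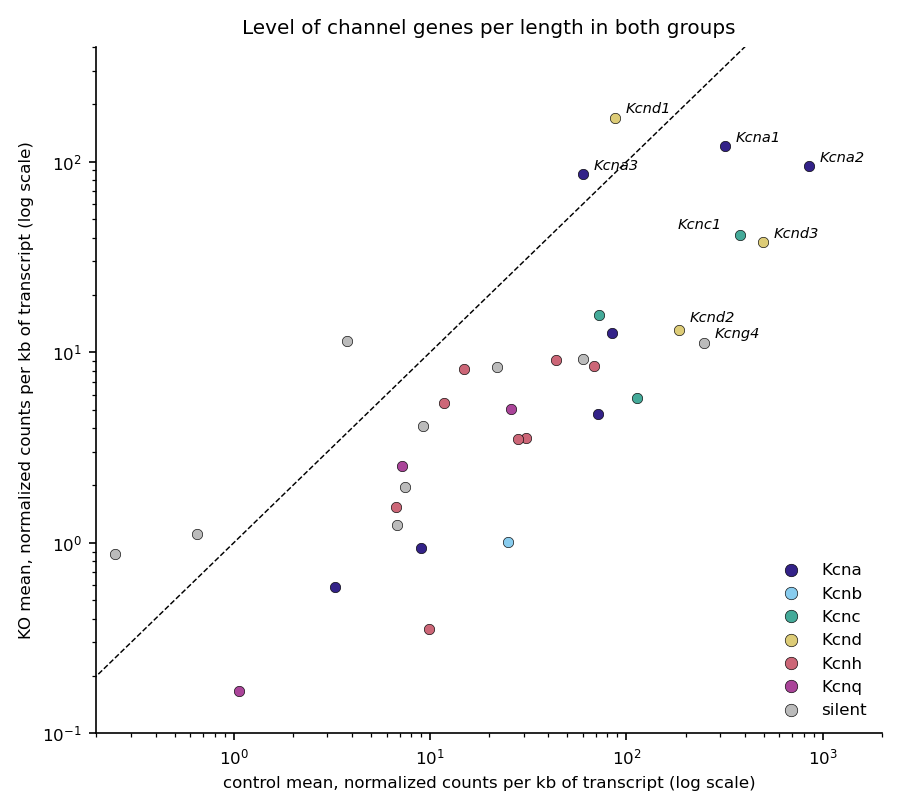
Mean level of the plotted channel genes per kb of the longest protein-coding transcript, in control (horizontal) and KO (vertical), both on log scales, with 1 point per gene coloured by subfamily. Genes on the dashed line would be equal in both groups; most lie below it, and Kcnd1 (87.3 in control, 170.5 in KO) and Kcna3 (60.3 and 85.7) lie above it among the abundant genes.

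Within the summed channel counts of a library, the share of each subfamily does not depend on the scaling between libraries. The Kcnd share was 18.0%, 18.2% and 18.6% in control but 37.3%, 26.3% and 23.3% in KO, so it was higher in every KO library, by 10.7 percentage points in the mean. Most of it was Kcnd3 in control, with 13.1% of all channel counts against 1.70% for Kcnd1, and most of it was Kcnd1 in KO, with 21.1% against 6.32% for Kcnd3. The Kcnc share was lower in every KO library, at 16.7% ± 1.71 in control and 10.5% ± 1.60 in KO, and so was the share of the silent subunits (5.30% ± 0.47 and 4.44% ± 0.16; n = 3 each, SD). Each of these 3 differences gave an exact two-sided permutation p of 0.1, the smallest that 3 against 3 allows, and 0.175 adjusted over the 7 subfamily groups, so the design cannot bring them past 0.05. The Kcna genes held 44.8% ± 0.59 of the counts in control and 42.2% ± 7.03 in KO and overlapped between the groups (p = 0.6 by exact permutation), as did the Kcnh and Kcnq shares (p = 0.6 and 0.5 by exact permutation).

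**Figure D4:**
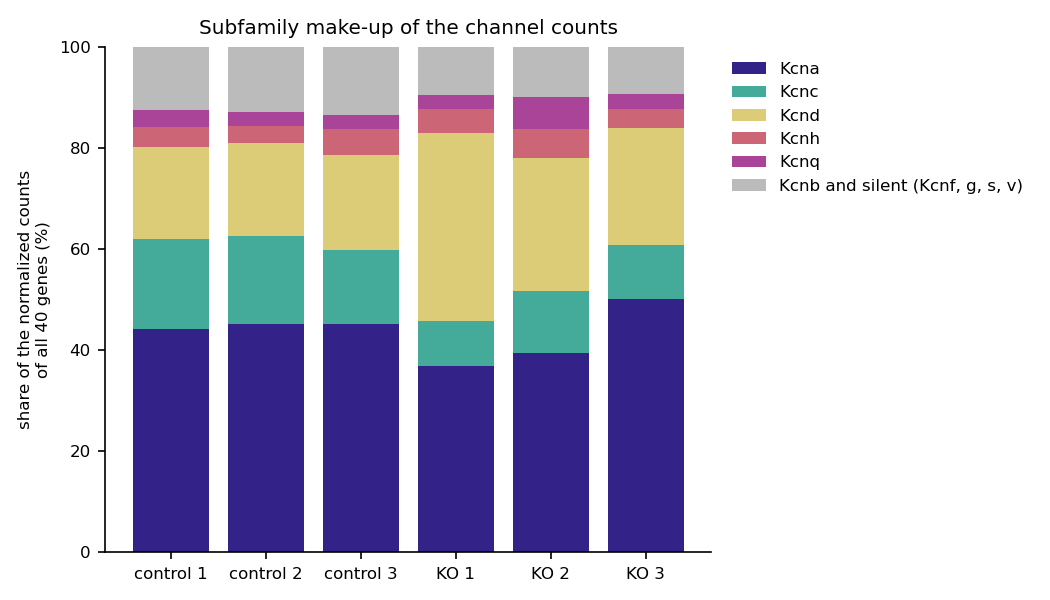
Share of each subfamily in the summed normalized counts of all 40 channel genes, in percent, with 1 stacked bar per library and the Kcnb and silent subunits joined. The Kcnd part is 18.0% to 18.6% in the 3 controls and 23.3% to 37.3% in the 3 KO libraries, and the Kcnc part is smaller in each KO library than in each control.

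Pore subunits work with auxiliary, trafficking and clustering proteins, and 33 gene symbols of such partners were examined, of which 32 were listed and 31 tested. The 33 symbols include both Kcne5 and Kcne1l, which name the same gene, listed here as Kcne1l. Of the 31 tested, 19 were called lower and 2 higher, against 28.8% and 22.2% of all genes tested. Their median log2 fold change was −1.61, or −1.90 without 2 genes that had no read in 1 of the groups. The partners of Kv4 channels, the potassium channel-interacting proteins and the dipeptidyl peptidase-like proteins Dpp6 and Dpp10, fell in 5 of 6 cases. Kcnip3 was the most abundant of all partners, with 16168, 19485 and 15007 normalized counts in control and 767, 915 and 743 in KO and a log2 fold change of −4.38 (SE 0.12, limma adjusted p = 4.4e-09). On the log2 scale Dpp10 fell by 3.49, Kcnip1 by 3.46, Dpp6 by 2.66 and Kcnip2 by 2.48. Kcnip4 overlapped between the groups (−0.50, limma adjusted p = 0.13; 0.22 under quantile normalization). Kcnd1, the Kv4 gene that rose, thus did so in libraries in which 5 Kv4 partners fell.

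Of 10 proteins that gather Kv1 channels in axons, 9 were called lower, against 28.8% of all genes tested. The call of Cntnap1 was lost under quantile normalization (−0.19, adjusted p = 0.48). By log2 fold change the 9 include the cell adhesion proteins Cntnap2 (−2.24) and Cntn2 (−1.91) and the Lgi1 receptors Adam22 (−1.05) and Adam23 (−2.99). They also include Lgi1 itself (−1.61) and the scaffold Dlg4, or PSD-95 (−2.17). Dlg1 was measured with little spread, at 2356, 2344 and 2350.2 normalized counts in control and 1834, 1872 and 1843 in KO, and passed the adjusted p but not the 1.5-fold threshold (log2 fold change −0.35, limma adjusted p = 0.0044). Of the cytoplasmic Kv beta subunits, Kcnab3 fell (−1.90, adjusted p = 0.00032 in limma), Kcnab2 was not called (−0.56, and 0.18 under quantile normalization) unless control replicate 3 was left out (−0.73, adjusted p = 0.029). Kcnab1 was called higher (1.21, adjusted p = 0.047 in limma) with groups that overlapped, at 11.7, 28.2 and 41.0 in control and 40.7, 65.9 and 68.4 in KO. That call was lost without control replicate 1 (adjusted p = 0.15) or 2 (0.075) and without KO replicate 2 (0.12) or 3 (0.13). Amigo1, a partner of Kv2 channels, fell by 2.16, and Ank3, the ankyrin of the axon initial segment where Kcnq channels are held, fell by 2.72, both on the log2 scale.

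Kcne1l, also known as Kcne5, was the partner with the largest fall, from 547, 483 and 460.3 to 21.8, 27.2 and 13.7 normalized counts, with a log2 fold change of −4.55 (SE 0.28, limma adjusted p = 3.2e-07). Kcnrg, which is known to hinder the assembly of Kv1 channels, rose from 84.8, 62.6 and 63.0 to 221, 266 and 352, every KO library far above every control, with a log2 fold change of 1.97 (SE 0.24, limma adjusted p = 5.1e-05). Kcne2 had no read in the KO libraries and Kcne3 none in the controls; both were within the floor in most libraries, and neither was called. The trafficking proteins Vapa, Vapb and Nedd4l were not called, with log2 fold changes of 0.48, −0.22 and −0.28. Vapa (limma adjusted p = 0.0032) and Nedd4l (limma adjusted p = 0.049) passed the adjusted p but not the 1.5-fold threshold. Vapb passed neither (limma adjusted p = 0.082). Akap5 was called lower by a small amount (−0.64, limma adjusted p = 0.036). That call was lost without any single control (adjusted p between 0.074 and 0.088) or without KO replicate 1 (0.097), with edgeR (0.067) and under quantile normalization (−0.22, adjusted p = 0.39). Kcne4 differed widely between the controls, at 0, 35.1 and 12.6 normalized counts, and was not called (−0.48). It was called lower without control replicate 1 (−1.97, adjusted p = 0.049) and turned to 0.62 without control replicate 2.

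**Figure D5:**
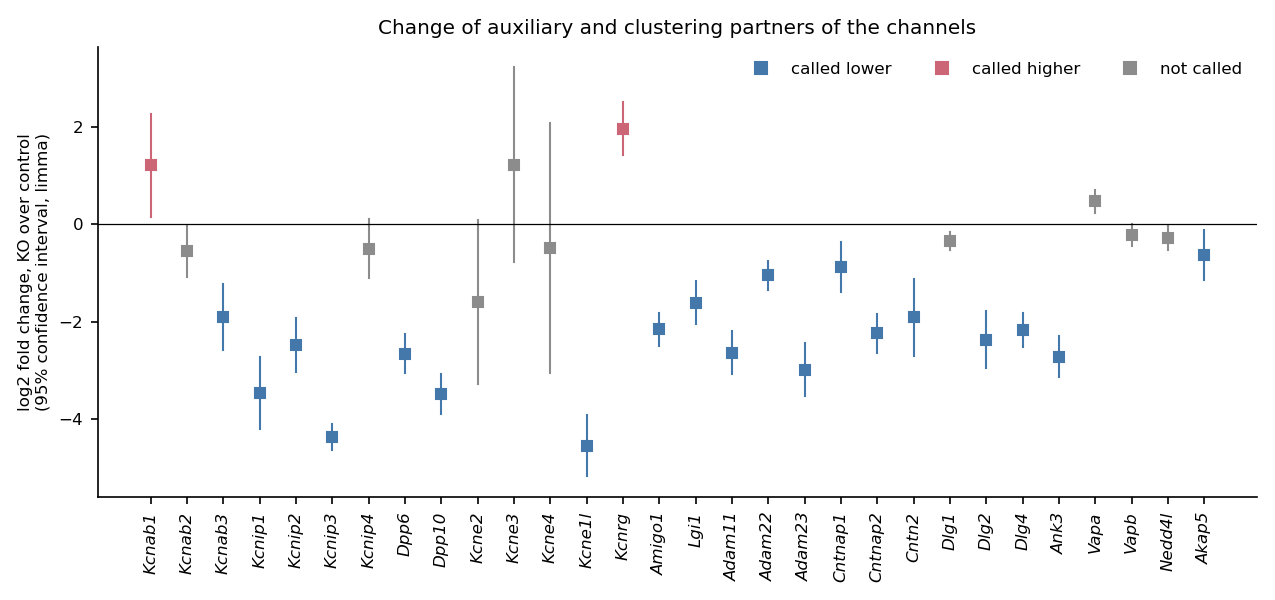
Log2 fold change of KO over control for 30 tested partner genes of the channels, with 95% confidence intervals from limma. Blue genes were called lower (19), red ones higher (2; Kcnab1 and Kcnrg) and grey ones were not called (9).

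Other potassium channel families stood beside the Kv genes as follows, where 28.8% of all genes tested were called lower and 22.2% higher. Of 15 inward rectifier genes (Kcnj), 8 were called lower and 2 higher, with a median log2 fold change of −2.23; of 12 tested tandem-pore genes (Kcnk), 7 and 2, with −2.11; and of 12 calcium- and sodium-activated channel genes, 9 and 1, with −2.21. The Kv genes had 31 and 2 of 38 and −2.37. The difference between the families was not tested.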

How the data were processed

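RNA was taken from sorted TurboRFP-positive olfactory bulb cells of 3 control and 3 Sox9 KO mice. Per the labels and methods, the authors mapped reads to mm10 with STAR 2.5.0a, counted them per gene and normalized them with DESeq2 1.20.0. The gene annotation and use of strand are not given in these sources. Deposited values, a normalized signal named RPM, were in each library 100% whole multiples of 1 step within 0.01 read, so they are counts divided by 1 size factor; no columns were left unused. The pseudocount (1) and the minimum mean (1), both chosen for RPM, were kept.

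The 18413 genes that averaged at least 1 across all libraries were tested with limma 3.58.1 (R 4.3.3), using log2(normalized count + 1), a variance trend, two-sided p-values and Benjamini-Hochberg adjustment over all genes tested; fold changes on this scale understate those of low genes. A call needed an adjusted p under 0.05 and 1.5-fold. Shares and ratios within a library were compared by exact two-sided permutation tests. Other pseudocounts, filters, scalings, thresholds, a replicate block, edgeR 4.0.16, DESeq2 1.42.0 on the recovered reads, and removal of each library were tried. In a simulation of Sox9 KO against control with 200 of 18149 genes changed by 1 on the log2 scale, limma recovered 159 and called 8 unchanged genes. These calls used an adjusted p under 0.05 alone, an assumed dispersion and known size factors. Far fewer genes were changed than were called in the data, so the simulation does not give the error rate of the calls reported here.

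The members and all lists (partners, related channels, cell type markers), the subgroups within them and the motifs were chosen with earlier results of these data known. Per-library values are given for the 2 highest members of each subfamily letter, for those called higher, and for the 5 called members with the lowest and the 5 with the highest log2 fold change; other members and partners were shown per library after their values were seen. Coordinates are from RefSeq GRCm38.p6, where all 40 members were found, and transcript lengths and exons from GENCODE M21, longest protein-coding transcript. Each library comes from a separate mouse, and read intervals cover counting error only. Some genes are included in the counts, sums and tests but are not reported here by their own values or drawn. Protein sequences were not analysed here.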

Additional observations from a re-analysis of the deposited data

How the results depend on the processing

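All 38 tested members kept their direction in every alternative except Kcnh4, which turned to a log2 fold change of 0.034 under quantile normalization. In the alternative fits judged at an adjusted p under 0.05 and 1.5-fold, 24 kept their side of the threshold throughout. Other thresholds are not part of that count, and Kcnd1 lost its call at 2-fold. The number called lower was 31, and 22 to 32 across the alternatives, lowest under quantile normalization. In the main fit 28.8% of all genes tested were called lower and 22.2% higher. The shares of all genes called under the alternatives are not given here, so the counts of members cannot be set against them. The number called higher was 2, and 1 with a pseudocount of 0.1, without a filter, with libraries scaled to the same total with or without Rn45s, without the variance trend, with DESeq2 and at 2-fold; it was 3 under quantile normalization and 1 to 2 without each library in turn. Where only 1 was left it was Kcnd1, except at 2-fold, where it was Kcng2. For the partners the number called higher was 1 to 2 without each library. The median log2 fold change of −2.37 was −2.71 with a pseudocount of 0.1, −1.64 under quantile normalization, and −2.85 to −2.24 without each library. These scalings also moved the median of all genes, by 0.27 under quantile normalization, −0.24 at the same total and −0.32 at the same total without Rn45s; relative to it the median of the members was −2.30, and −1.85, −2.31 and −2.31 under those scalings. Per kb of transcript, the difference in share (KO minus control, percentage points) turned to 5.30 for Kcna and −0.46 for Kcnh and moved to −9.75 for Kcnc and −2.97 for the silent subunits. Without each library it ranged from −6.63 to 0.014 for Kcna, −0.13 to 0.96 for Kcnh and −0.070 to 1.63 for Kcnq, with the sign turned by KO replicate 1 for Kcna and KO replicate 2 for Kcnh and Kcnq, and from 6.50 to 13.5 for Kcnd. The causes were not tested. Neither the labels nor the methods say that the replicate numbers pair the samples. Deviations of same-numbered libraries from their group means were nearly uncorrelated (−0.05, −0.01 and −0.01), which cannot show how the mice were processed. With the replicate block 29 members were called lower and 2 higher. With 3 libraries a group, members under about 10 normalized counts (Kcna5, Kcng1, Kcnq1, Kcns1) rest on a few reads each.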
